A study of Homo sapiens with 5 samples.

Results

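Chromosome 5 of HL60 was described from its 362 bins of 500 kb, all those the contact maps hold for it, out of 6083 bins on the autosomes and the X chromosome. HL60 is an established human promyelocytic leukemia line that matures towards granulocytes under all-trans retinoic acid (ATRA) and towards macrophage-like cells under the phorbol ester TPA. Proximity was read by in-solution Hi-C with HindIII, in which DNA ends that lie close together in the nucleus are joined, sequenced as pairs and counted as contacts between bins. Untreated cells (2 libraries), cells treated with ATRA (1 library) and cells treated with TPA (2 libraries) were compared; all are the same line, and the labels give neither dose nor time. The libraries of a group were merged before deposit, so each group is 1 matrix, no test of a treatment is possible, and the 95% intervals below cover counting error only. Chromosome 5 was selected on its measured coverage, one of the lowest medians of the autosomes, and on its contacts with other chromosomes in these same matrices, so its levels are given as descriptions without a test.

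Hi-C registers changes of the karyotype in a pair of ways. A region present in fewer copies yields fewer contacts. Segments that were moved onto another chromosome contact their new neighbour more often than loci on separate chromosomes do, with contact falling off with distance from the point of joining. Loss of material from the long arm of chromosome 5 is a recurrent change in myeloid leukemia; that arm carries, among others, EGR1, a zinc-finger transcription factor of myeloid differentiation, RPS14, a ribosomal protein gene, CSF1R, the receptor of macrophage colony-stimulating factor, and CD14, a monocyte co-receptor of lipopolysaccharide. Those genes could not be placed in bins here, because no annotation on the build of the matrices (hg19) was used.

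Coverage, the number of contacts of a bin, was divided by that of the median autosomal bin. The untreated, ATRA and TPA matrices held 10628045, 9632300 and 10423501 contacts. The chromosome took part in 835499 contacts of the untreated matrix, 820421 of the ATRA matrix and 848586 of the TPA matrix, and 353 of its 362 bins passed the minimum of 0.2 times the median in every matrix. The median bin of the chromosome held 2450, 2380 and 2515 contacts in the untreated, ATRA and TPA matrices. Its median coverage was 0.690, 0.711 and 0.710, the lowest of the 22 autosomes in each matrix; chromosome 3 came next with 0.805, 0.861 and 0.849. Of its bins, 132 of 353 lay under 0.6 times the median in all 3 matrices, against 8.09% of the autosomal bins.

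Low coverage was not spread evenly. Partitioning of the log2 coverage gave 6 segments. The first 17.5 Mb of the short arm had a median coverage of 1.20, 1.26 and 1.26 in the untreated, ATRA and TPA matrices. Between 17.5 and 30.5 Mb the medians were 0.679, 0.717 and 0.744, and between 30.5 and 54 Mb, a segment that crosses the centromere, they were 0.928, 0.978 and 0.937. The segment from 54 to 131 Mb had the lowest coverage, with medians of 0.447, 0.468 and 0.457. From 131 to 139.5 Mb the medians were 0.702, 0.647 and 0.660, and from 139.5 Mb to the end at 181 Mb they were 1.19, 1.13 and 1.14. The matrices thus placed the segments in the same order of level, with 1 exception: ATRA and TPA had the segment from 131 to 139.5 Mb below that from 17.5 to 30.5 Mb, and the untreated matrix had it above. The limits at 54, 131 and 139.5 Mb appeared in every partition run. Partitioned alone, the untreated matrix gave 7 segments, with a further step at 82.5 Mb (medians of 0.503 before and 0.413 after it), the ATRA matrix 6, and the TPA matrix 5, in which 17.5 to 54 Mb was a single segment at 0.831. The penalty also set the number, with 12 segments at 0.5 times the penalty and 5 at 2 times, where no segment from 17.5 to 30.5 Mb was set off.

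**Figure D1:**
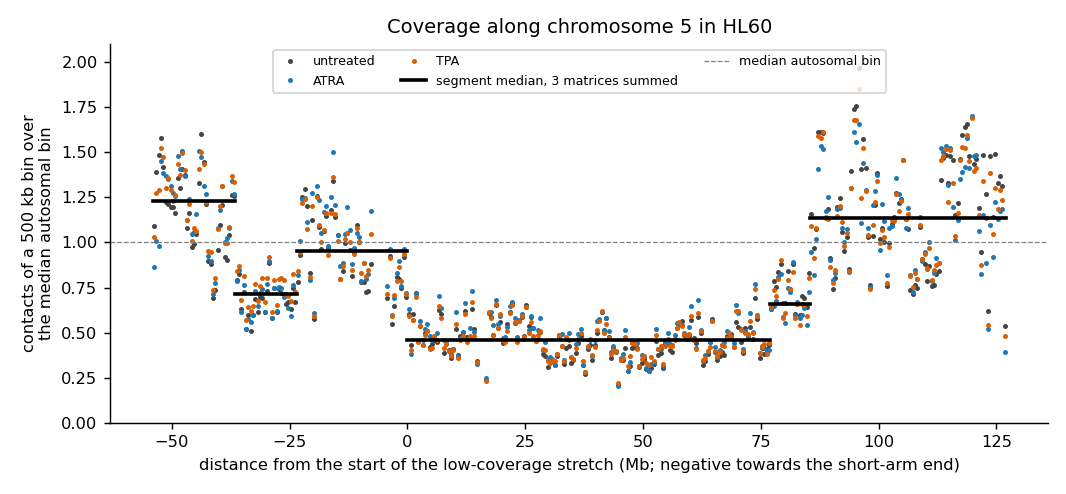
Each point is a 500 kb bin of chromosome 5 in 1 matrix; the x axis is the distance in Mb from the start of the low-coverage stretch, the y axis is the number of contacts over that of the median autosomal bin, and black lines are the medians of the 6 segments in the 3 matrices summed. The long segment that begins at 0 lies at 0.459, and the last segment at 1.14.

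The 54 to 139.5 Mb region, called the low stretch below, was the main depleted part of the chromosome. Its median coverage without 3 bins treated separately below was 0.460 (quartiles 0.387 and 0.553) in untreated cells, 0.483 (0.408 and 0.569) in ATRA and 0.465 (0.403 and 0.557) in TPA. Its level over that of the short arm was 0.479, 0.479 and 0.464. Over that of the adjoining 49.5 to 54 Mb, with 9 bins, it was 0.616, 0.635 and 0.592. At the 54 Mb limit itself, the 5 bins after it over the 5 bins before it gave 0.757, 0.687 and 0.727. For scale, the median X chromosome bin lay at 0.431, 0.439 and 0.442. Of its 165 bins, 128 were under 0.6 times the median in all 3 matrices; the short arm held 1 such bin of 93, the proximal long arm from 49.5 to 54 Mb held 1 of 9, the region from 139.5 to 157 Mb held 0 of 35 and the region from 157 Mb to the end held 1 of 48.

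Coverage also follows chromatin type, so the low stretch was read against bins of the same type. In the 3 matrices summed, bins on the active (A) side of the compartment score described below had a median coverage of 1.16 on the other autosomes and of 0.507 in the low stretch. Bins on the inactive (B) side had 0.906 on the other autosomes and 0.407 in the low stretch. The low stretch was below the other autosomes on both sides. On the X chromosome the values were 0.486 for the A side and 0.406 for the B side.

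Contacts with other chromosomes were set against an expectation in which the contact of 2 bins is proportional to the product of their coverages. Bin pairs of at least 20 contacts and at least 10 times this expectation in the 3 matrices summed were merged with their neighbours into joined clusters. There were 25 clusters, and all of them lay with chromosome 7 (8 clusters), chromosome 16 (13) or chromosome 17 (4). The 5 clusters of 5 or more bin pairs held 45 of the 353 bins of the chromosome, against 6.69% of the autosomal bins. Chromosomes 7, 16 and 17 were also the only partners of such clusters when the fold was 5 or 20, the minimum was 10 contacts, the expectation came from contacts between chromosomes, or each matrix was used alone; the number of clusters then ran from 3 to 10.

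The largest cluster spanned 77 bin pairs between the chromosome 5 bins at 149 to 160.5 Mb and the chromosome 16 bins at 77.5 to 86.5 Mb. It held 995 contacts in untreated cells (20.2 times the expectation), 655 in ATRA (12.6 times) and 1000 in TPA (20.2 times), and its highest bin pair, at 156.5 Mb on chromosome 5 and 82 Mb on chromosome 16, held 46, 22 and 29. In the next, bins at 139.5 to 142.5 Mb contacted those at 126.5 to 131 Mb of chromosome 7, with 388, 267 and 311 contacts (19.9, 15.9 and 16.5 times). Its highest pair was the bin at 139.5 Mb with that at 130.5 Mb of chromosome 7, with 33, 26 and 26 contacts. Among the clusters of 5 or more bin pairs, the highest excess lay between the proximal long arm, 49.5 to 54 Mb, and 20.5 to 22 Mb of chromosome 17, with 286, 216 and 293 contacts (38.3, 27.2 and 36.2 times). All 3 clusters sat at or near the places where coverage or partner changed along chromosome 5.

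The remaining 2 clusters of this size lay farther out on the same segments. In one, bins at 167 to 170.5 Mb contacted those at 77 to 81 Mb of chromosome 16 (124, 105 and 110 contacts; 12.8, 9.48 and 10.5 times). In the other, bins at 148 to 151 Mb contacted those at 127.5 to 130 Mb of chromosome 7 (122, 76 and 105 contacts; 12.8, 9.74 and 11.9 times). In each of these 5 clusters the excess was lowest in the ATRA matrix.

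Contact with whole partner chromosomes divided the chromosome into blocks with sharp limits, shown in the plot of contact along the chromosome. With chromosome 7, bins from 0 to 127.5 Mb had 1.03 times the expected contact, bins from 139.5 to 157 Mb had 2.33 times, and bins from 157 Mb to the end had 0.944 times. With chromosome 15 the level was 0.920 from 119.5 to 157 Mb and 1.65 from 157 Mb to the end. With chromosome 16 it rose in steps from 1.21 between 140 and 149 Mb to 1.56 between 149 and 156.5 Mb and 2.65 from 156.5 Mb on. With chromosome 17 it was 1.66 from 2 to 31.5 Mb and 2.07 from 31.5 to 46.5 Mb on the short arm, a step that lies near the coverage limit at 30.5 Mb, then 2.95 from 49.5 to 54 Mb and 1.04 from 54 to 87 Mb. A change at 156.5 or 157 Mb thus appeared with chromosomes 7, 15 and 16, although coverage did not step there: the median coverage of the block before it over that of the block after it was 0.894, 0.984 and 0.953.

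**Figure D2:**
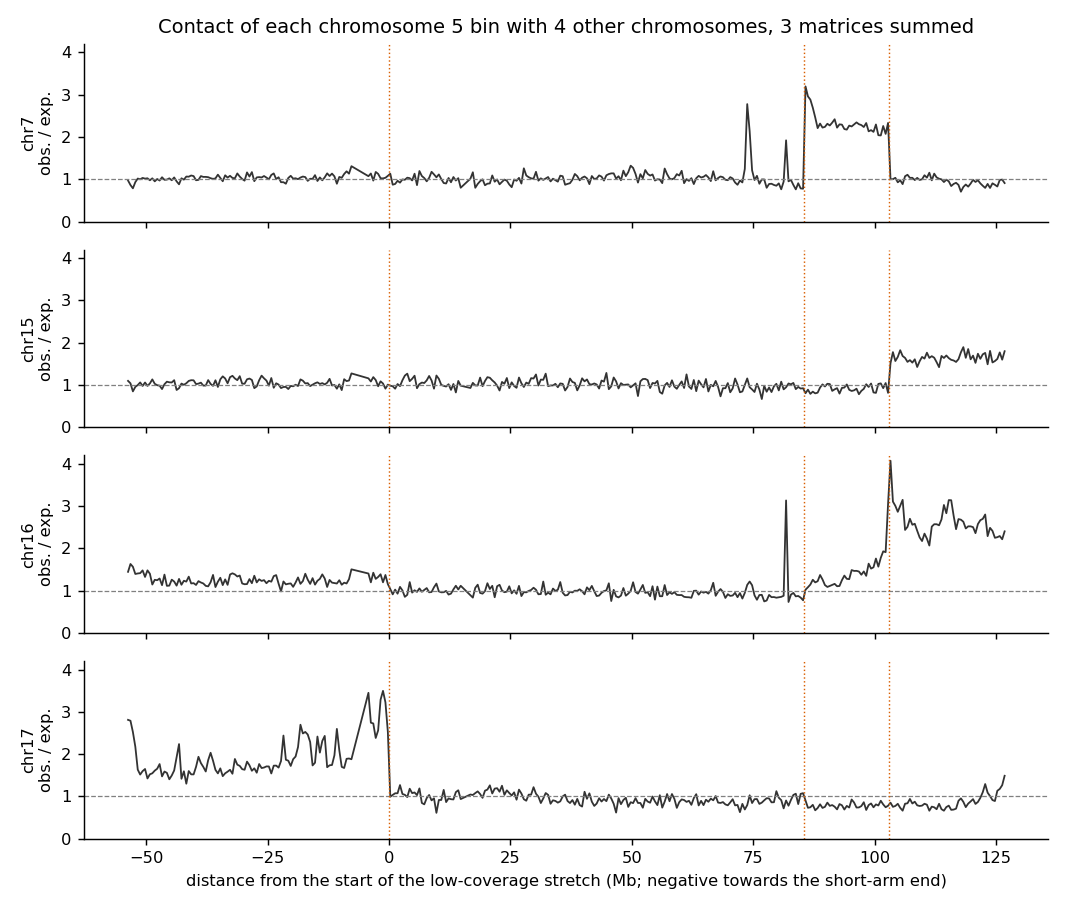
Contacts of each chromosome 5 bin with all of chromosome 7, 15, 16 or 17 in the 3 matrices summed, over the expectation from coverage; the x axis is the distance in Mb from the start of the low-coverage stretch, the dashed line is the expectation, and the dotted lines mark the start and end of the low stretch and the end of the middle block. Chromosome 17 falls at the first line, chromosome 7 rises at the second and falls at the third, and chromosomes 15 and 16 rise at the third.

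The short arm and the proximal long arm had chromosome 17 as their main partner. The proximal long arm contacted 20.5 to 74 Mb of chromosome 17 at 3.86, 3.17 and 4.41 times the expectation in the untreated, ATRA and TPA matrices (1408, 1165 and 1643 contacts). Of the 4 combinations of ends, the distal 2 Mb of the block with the first 5 Mb of that interval was highest in all 3 matrices, at 15.1, 11.5 and 14.3 times; the other 3 combinations lay between 6.02 and 7.01 in the matrices summed. The short arm contacted 48.5 to 74 Mb of chromosome 17 at 3.21, 2.57 and 3.02 times (7517, 6154 and 7393 contacts) and 20.5 to 34 Mb at 1.96, 1.81 and 2.43 times. For 48.5 to 74 Mb the 4 combinations of ends lay between 2.93 and 3.78 in the matrices summed and the highest differed between matrices, so no joined end could be assigned. The low stretch, which begins where this contact stops, contacted 20.5 to 74 Mb of chromosome 17 at 0.919, 0.965 and 1.06 times.

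The same pair of blocks had raised contact with the short arm of chromosome 16, and the short arm more weakly with chromosome 21. The short arm contacted 5 to 15 Mb of chromosome 16 at 1.91, 1.96 and 2.88 times, and the proximal long arm contacted 0 to 15 Mb at 1.61, 1.99 and 3.14 times. Between 9.5 and 33.5 Mb of chromosome 21 the short arm stood at 1.55, 1.53 and 1.58 times, while the proximal long arm, at 1.37, 1.21 and 1.25 times, was under the limit of 1.5 used for a raised interval. These partners also contacted each other: 5 to 15 Mb of chromosome 16 stood at 3.98 times with 20.5 to 74 Mb of chromosome 17 and at 3.77 times with that chromosome 21 interval, in the matrices summed, and the chromosome 17 and chromosome 21 intervals stood at 1.25 times with each other. Of the combinations of ends of the short arm with 5 to 15 Mb of chromosome 16, start with start was highest in each matrix (3.47, 3.17 and 4.28 times). With 20.5 to 34 Mb of chromosome 17, the end of the short arm with the start of that interval was highest in each matrix (3.13, 2.73 and 3.36 times).

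The middle block, 139.5 to 157 Mb, contacted a partner at each end. With 61.5 to 131 Mb of chromosome 7 it stood at 4.13, 3.47 and 4.02 times (8979, 7777 and 8933 contacts). The first 5 Mb of the block with the last 5 Mb of that interval held 11.1, 9.42 and 10.9 times the expectation, and this fell along the block to 4.05, 3.38 and 4.31 times between 154.5 and 157 Mb. With 81.5 to 90 Mb of chromosome 16, the end of that chromosome, it stood at 6.23, 5.61 and 7.30 times (2001, 1591 and 2221 contacts). Here the excess was highest at the other end of the block: 152 to 157 Mb held 11.9, 9.57 and 13.1 times with 81.5 to 86.5 Mb of chromosome 16, against 3.31, 3.42 and 5.65 times for 142 to 147 Mb and 4.72, 4.06 and 5.77 times for 139.5 to 142 Mb.

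The distal block, 157 to 181 Mb, contacted 28 to 81.5 Mb of chromosome 16 at 4.34, 3.75 and 4.31 times (9955, 8314 and 9838 contacts). Its first 5 Mb with 76.5 to 81.5 Mb of chromosome 16 held 12.5, 8.05 and 13.4 times, falling to 3.23, 3.31 and 4.10 times between 177 and 181 Mb. Seen from chromosome 16, the excess with that first 5 Mb fell from 12.5, 8.05 and 13.4 times at 76.5 to 81.5 Mb to 2.09, 1.69 and 2.35 times at 28 to 31.5 Mb. The distal block had a further, weaker partner in chromosome 15: at 23.5 to 63.5 Mb it stood at 1.94, 1.72 and 1.96 times, with its start and the start of that interval highest in all 3 matrices. That interval, together with 79 to 102.5 Mb of chromosome 15, contacted 28 to 81.5 Mb of chromosome 16 at 2.22 times in the matrices summed. The first 5 Mb of that chromosome 16 interval with the first 5 Mb of the chromosome 15 interval held 5.28, 4.11 and 4.95 times, against 3.93, 4.09 and 3.29 times for its last 5 Mb, so the ATRA matrix barely set the ends apart.

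**Figure D3:**
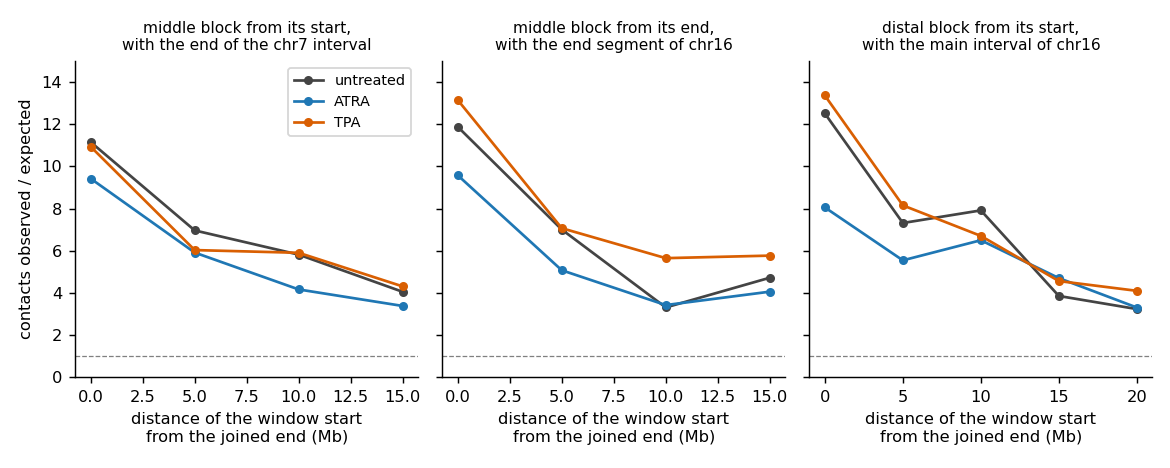
Observed over expected contacts of successive 5 Mb windows of the middle and distal blocks with the 5 Mb of the partner chromosome nearest the joined end, in each matrix; the x axis is the distance of the window's start from the joined end in Mb and the dashed line is the expectation. In every panel and matrix the first window is highest, between 8.05 and 13.4 times, and every window stays above 3 times.

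A few bins inside the low stretch stood apart by their partners. The adjacent bins at 127.5 and 128 Mb had coverages of 0.690 and 0.575 untreated, 0.769 and 0.599 under ATRA and 0.739 and 0.590 under TPA, while the bins just outside, at 127 and 128.5 Mb, had 0.463 and 0.361, 0.501 and 0.388, and 0.498 and 0.386. The bin at 127.5 Mb held 30, 21 and 20 contacts with the bin at 130.5 Mb of chromosome 7, 72.2 times the expectation in the matrices summed and the highest excess of any pair of these 3 bins. Both bins also contacted the start of the middle block, which lies far away on the reference: with 139.5 to 141 Mb, the bin at 127.5 Mb held 46, 33 and 36 contacts (5.88, 4.67 and 3.81 times the expectation from distance and coverage) and that at 128 Mb held 52, 27 and 25 (7.80, 4.83 and 3.23 times). With the next 1.5 Mb the excess in the matrices summed was 1.44 and 1.49 times. The bin at 128 Mb further held 10, 8 and 4 contacts with the bin at 20.5 Mb of chromosome 17, a total of 22 and 30.9 times the expectation.

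The other such bin, at 135.5 Mb, had a coverage of 0.879, 0.890 and 0.834, against 0.744, 0.725 and 0.743 for the bin before it and 0.603, 0.597 and 0.583 for the bin after it; the bin at 133 Mb had 0.882, 0.827 and 0.904, so this coverage was within the range nearby. It held 37, 28 and 24 contacts with the bin at 85 Mb of chromosome 16 and 24, 18 and 14 with the bin at 131 Mb of chromosome 7, which were 53.7 and 44.6 times the expectation in the matrices summed. More widely it contacted 128.5 to 159.5 Mb of chromosome 7 at 5.30, 4.22 and 5.29 times and 22 to 85.5 Mb of chromosome 16 at 4.91, 3.64 and 4.15 times. Those intervals of chromosomes 7 and 16 contacted each other at 3.46 times. The bin had no excess with 139.5 to 141 Mb of its own chromosome, at 0.584, 0.595 and 0.874 times. The rest of the low stretch had no raised interval on any of the 22 other chromosomes, whose levels with it ran from 0.876 to 1.05 times. The bins set apart were those in joined clusters, so the rest held no joined bin pair from the outset. Its bins were pooled for these levels, which could hide a partner of a single bin.

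Placing each segment beside the end it contacted most gives an order. The first row of segments runs from chromosome 7 up to 131 Mb through 127.5 to 128.5 Mb and then 139.5 to 157 Mb of chromosome 5 into 81.5 to 90 Mb of chromosome 16; the outer members of this row, 61.5 to 131 Mb of chromosome 7 and 81.5 to 90 Mb of chromosome 16, contacted each other at 3.26 times. Another row runs from 28 to 81.5 Mb of chromosome 16 into 157 to 181 Mb of chromosome 5; chromosome 15 contacted both and was given no place. The next joins chromosome 16 up to 85.5 Mb, the bin at 135.5 Mb, and chromosome 7 from 131 Mb on. Its chromosome 16 stretch overlaps those of both rows above, so the rows do not form a single order. How copies of chromosome 16 are divided among the rows was not tested. The last joins the chromosome 5 end at 54 Mb to 20.5 Mb of chromosome 17, with the order of the short arm, the distal part of chromosome 17 and the short arm of chromosome 16 not assigned. The bin at 128 Mb, placed in the first row, contacted that same 20.5 Mb bin of chromosome 17. In the matrices summed it stood at 30.9 times there and at 31.7 times with 130.5 Mb of chromosome 7. Its contacts with other chromosomes thus did not settle its row. The bin at 156.5 Mb, at the chromosome 16 end of the first row, also contacted the bin at 131 Mb of chromosome 7. They held 22, 6 and 12 contacts in the untreated, ATRA and TPA matrices, 25.0 times the expectation in the matrices summed. No row places these bins side by side. These orders are a reading of contact levels at 500 kb, with a limit known to no better than 1 bin, and no read across a junction was examined.

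Contacts within chromosome 5 changed at the same limits. Contact between the 5 Mb on each side of a position was divided by the contact within the sides, after scaling for distance. At 157 Mb this ratio was 0.582, 0.629 and 0.587, against a median of 1.05, 1.03 and 1.06 over 4424 autosomal positions, and at 139.5 Mb it was 0.577, 0.601 and 0.659. These were the lowest of the chromosome in the matrices summed, where 2.33% and 2.69% of all positions were lower. The limit at 54 Mb lies too near the centromere gap for this measure.

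Between blocks, the expectation from distance and coverage set the blocks apart. The middle and distal blocks, neighbours on the reference, contacted each other at 0.622, 0.643 and 0.637 times this expectation, and the short arm and the middle block at 0.605, 0.697 and 0.605 times. The low stretch contacted the middle block at 1.08, 1.09 and 1.09 times and the distal block at 1.16, 1.20 and 1.15 times. Within itself it stood at 1.97, 1.79 and 1.93 times. This expectation holds the product of the coverages of a bin pair, so inside the low stretch low coverage enters it from both bins. Against the mean contact at the same distance, with no term for coverage, the low stretch within itself stood at 0.402, 0.410 and 0.413. By that measure it stood at 0.650, 0.663 and 0.659 with the middle block and at 0.687, 0.714 and 0.678 with the distal block. The short arm within itself stood at 0.940, 0.938 and 0.998. Of long-range joins within the chromosome, bin pairs at least 5 Mb apart with 20 or more contacts and 5 or more times the expectation, there were 9 clusters and none reached 5 bin pairs. The largest was the join of 127.5 to 128.5 Mb with 139.5 to 140.5 Mb described above (83, 48 and 46 contacts over 4 bin pairs); with a fold of 3 it reached 5 pairs, from 139.5 to 141 Mb, with 92, 54 and 58 contacts.

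Compartments divide chromatin into an active A side and an inactive B side, read from the first eigenvector of the correlation of contact profiles within the chromosome, in units of its SD. The sign was set by contact with chromosome 19, which is gene-rich, and the correlation behind that choice was weak on chromosome 5 (r = 0.20 over 353 bins that share their libraries). A score computed from contacts between chromosomes correlated with it at 0.72, 0.74 and 0.87 in the untreated, ATRA and TPA matrices, and its own correlation with chromosome 19 contact was 0.48. The score followed neither the arms (r of 0.19, 0.21 and 0.22) nor the limits of the low stretch (0.10, 0.19 and 0.21) closely. On the A side lay 51.0%, 45.9% and 44.8% of the bins of the chromosome; on the other autosomes it was 49.5%, 45.7% and 40.0%.

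The blocks differed in makeup. The low stretch had 54.5%, 51.5% and 55.2% of its 165 bins on the A side. The short arm had 40.9%, 31.2% and 29.0% of 93 bins, and the proximal long arm, with 9 bins, 22.2%, 33.3% and 55.6%. The middle block went from 57.1% to 42.9% and 40.0% of 35 bins, and the distal block from 60.4% to 60.4% and 43.8% of 48. Against untreated cells, the score of the middle block was lower in 29 of 35 bins under ATRA and 26 of 35 under TPA, but the score from contacts between chromosomes was lower in 8 and 15 of those bins, so the shift of that block depended on the contacts used. In the distal block the score and the score from contacts between chromosomes were lower in 30 and 28 of 48 bins in ATRA and in 29 and 32 in TPA. The short arm gave 56 and 61 of 93 bins in ATRA and 52 and 64 in TPA, and the whole chromosome 189 and 170 of 353 in ATRA and 179 and 187 in TPA. On the other autosomes the score was lower in 52.3% of 4996 bins in ATRA and 61.3% in TPA, so the 60.4% of the distal block and the 55.9% of the short arm in TPA were not above that share. In the proximal long arm the score was lower in 3 of 9 bins in ATRA and 0 of 9 in TPA.

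**Figure D4:**
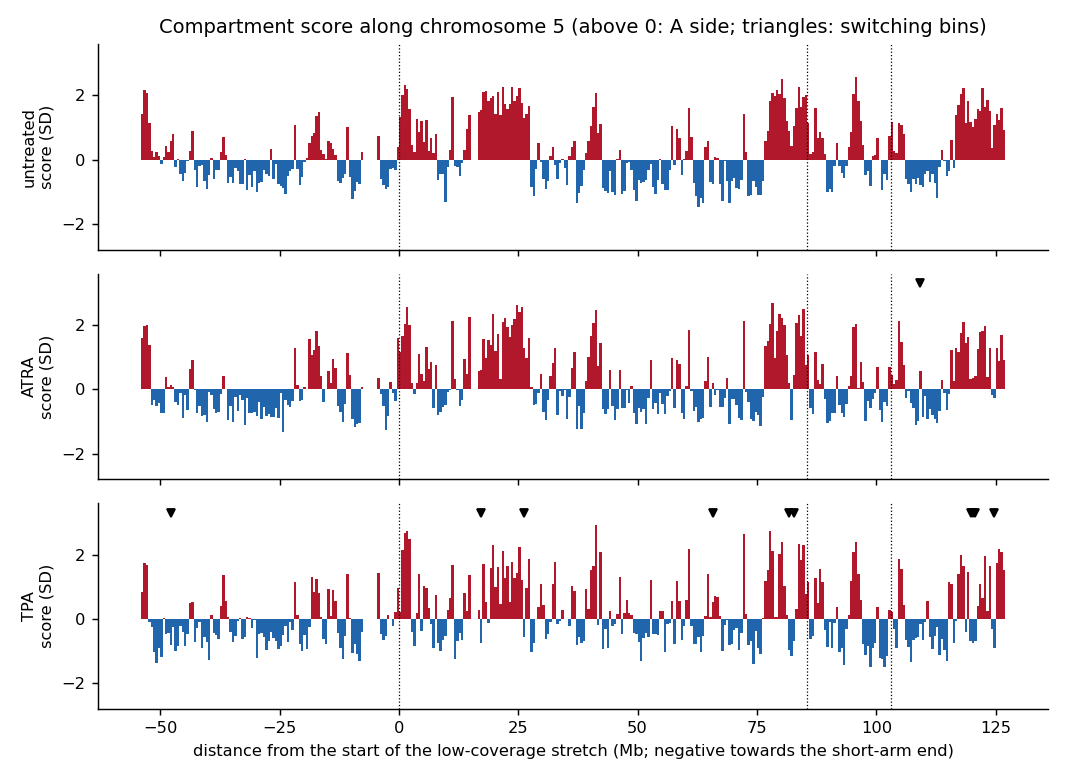
Compartment score of each kept bin of chromosome 5 in the untreated, ATRA and TPA matrices (A side red, B side blue, in SD); the x axis is the distance in Mb from the start of the low-coverage stretch, dotted lines mark the block limits and triangles the bins that switched side against untreated cells. One triangle stands in the ATRA panel and 10 in the TPA panel.

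Few bins changed side. A switch was counted when the score crossed 0 and its size was above 0.5 SD in both matrices compared. In ATRA there were 0 switches from A to B on chromosome 5 (0.497% of all 5629 bins kept) and 1 from B to A (0.249% of all bins). In TPA there were 9 from A to B, 2.55% of the 353 bins and close to the 2.54% of all bins, and 1 from B to A (0.213% of all bins). No bin switched in both treatments, but with 1 switching bin in ATRA an overlap of at most 1 bin was possible. These counts are sensitive to the score: without balancing of the contacts there were none in either treatment, and from contacts between chromosomes there were 1 from A to B in ATRA, and 1 from A to B with 3 from B to A in TPA.

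The only run of adjacent switching bins lay at 173.5 to 175 Mb in the distal block, where the mean score of 3 bins was 1.15 untreated, 0.36 under ATRA and -0.71 under TPA. From contacts between chromosomes the mean over these bins was 0.26, -0.32 and -1.04. Among the switching bins, the largest falls in TPA were at 71 Mb (1.55 untreated, 0.61 in ATRA, -0.77 in TPA), at 178.5 Mb (1.07, -0.26 and -0.91), at 174.5 Mb (1.28, 0.40 and -0.68), at 173.5 Mb (1.17, 0.31 and -0.69) and at 80 Mb (1.31, 1.28 and -0.55). The score from contacts between chromosomes went the same way in 8 of the 9 bins; the exception was the bin at 80 Mb, with -0.27, -0.02 and -0.07. Among the other falls was the bin at 135.5 Mb that contacts chromosomes 7 and 16 (0.88, 0.20 and -0.97). The single rise in TPA, at 119.5 Mb, went from -0.77 to 0.51, and the single rise in ATRA, at 163 Mb, from -0.80 to 0.57; the score from contacts between chromosomes at 163 Mb was -0.67 untreated and -0.79 in ATRA.

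The share of contacts that stayed within the chromosome was lower in both treatments. Untreated cells had 22.2%, ATRA-treated cells 16.8% and TPA-treated cells 20.4%. The change was -5.43 percentage points in ATRA (95% interval -5.55 to -5.31) and -1.80 in TPA (-1.92 to -1.67). The median change over the 23 chromosomes was -5.38 and -2.0, close to the values of chromosome 5. Of the contacts between different bins of the chromosome, the share under 2 Mb changed by -8.30 points in ATRA (-8.66 to -7.94) and by -8.55 in TPA (-8.89 to -8.21), against medians of -7.41 and -8.38. As a share of all contacts of the matrix, contacts between neighbouring bins of chromosome 5 stood at 0.618 times the untreated level in ATRA and 0.705 in TPA. On the other chromosomes together they stood at 0.633 and 0.702, close to these values. At 5.5 to 10 Mb, contacts of chromosome 5 stood at 0.992 (0.967 to 1.02) and 1.33 (1.30 to 1.36), and those of the other chromosomes together at 0.955 and 1.19.

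Coverage in the treated matrices was then set against untreated cells bin by bin. The low stretch changed by a median of 0.09 on the log2 scale in ATRA (quartiles 0.04 and 0.15; 138 of 165 bins higher) and 0.03 in TPA (-0.03 and 0.09; 109 higher), the other autosomes by 0.06 and 0.02. The segment from 131 to 139.5 Mb went the other way in both, by -0.08 and -0.06, with 5 and 4 of 17 bins higher. The segment from 17.5 to 30.5 Mb was higher in all 26 bins in TPA, by a median of 0.13. Changes of more than 0.25 in ATRA were seen in 9 of 353 bins upwards (2.55%, against 1.94% of autosomal bins) and 10 downwards (2.83% against 9.65%). In TPA they were seen in 3 upwards (0.850% against 0.318%) and 0 downwards (0% against 0.467%).

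The joined clusters were weaker in the ATRA matrix. Over the 5 clusters of 5 or more bin pairs together, observed over expected contact in ATRA was 0.686 times that in untreated cells (95% interval 0.639 to 0.737; 1319 against 1915 contacts), with all 5 lower and the interval of 4 below 1. In TPA it was 0.946 times (0.886 to 1.01; 1819 contacts), with all 5 lower and the interval of 1 below 1. The clusters hold a range of distances across a joined end, from adjoining bins to several Mb, and contacts within chromosome 5 changed differently by distance. As shares of all contacts, neighbouring bins stood at 0.618 times untreated in ATRA and 0.705 in TPA. Bins 1 to 2 Mb apart stood at 0.706 and 0.829, those 2.5 to 5 Mb apart at 0.872 and 1.08, and those 5.5 to 10 Mb apart at 0.992 and 1.33. The clusters stood at 0.760 and 0.969. Whether the clusters fell by more than the distance alone gives was not tested. Measured over whole segments the difference was smaller: the middle block with chromosome 7 stood at 0.839 times untreated in ATRA (0.814 to 0.865), the distal block with 28 to 81.5 Mb of chromosome 16 at 0.864 (0.839 to 0.890) and the short arm with 48.5 to 74 Mb of chromosome 17 at 0.802 (0.775 to 0.829). In TPA these were 0.972, 0.992 and 0.941.

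One set of contacts was higher in TPA. The short arm with 5 to 15 Mb of chromosome 16 went from 1850 to 2894 contacts, 1.51 times in observed over expected (1.42 to 1.60), and the proximal long arm with 0 to 15 Mb from 177 to 348, 1.95 times (1.62 to 2.35). The low stretch with 5 to 15 Mb of chromosome 16 stood at 1.05 times (0.953 to 1.16), the middle block at 1.08 (0.931 to 1.25) and the distal block at 1.01 (0.900 to 1.14). Taken whole, the 21 other chromosomes had changes of contact with this chromosome 16 interval from 0.830 to 1.40 with a median of 0.982. A higher value in TPA was not particular to chromosome 5: the 9.5 to 33.5 Mb interval of chromosome 21 held 1045, 1097 and 1843 contacts with 5 to 15 Mb of chromosome 16 in the untreated, ATRA and TPA matrices (3.07, 3.05 and 5.16 times the expectation), 1.68 times as high in TPA (1.56 to 1.81). The short arm with 20.5 to 34 Mb of chromosome 17 was also higher, 1.24 times (1.17 to 1.32), and the middle block with the end of chromosome 16 was 1.17 times as high (1.10 to 1.24). Neither rise was particular to that block. With the chromosome 17 interval the middle block stood at 1.24 (1.08 to 1.43), the low stretch at 1.13 (1.03 to 1.24) and the distal block at 1.06 (0.944 to 1.20). With 81.5 to 90 Mb of chromosome 16 the low stretch stood at 1.21 (1.07 to 1.37) and the short arm at 1.16 (1.03 to 1.29). The proximal long arm and the distal block stood at 0.981 and 0.990 there. In ATRA the short arm with 5 to 15 Mb of chromosome 16 stood at 1.03 times (0.963 to 1.09) and the proximal long arm with 0 to 15 Mb at 1.24 times (1.01 to 1.52; 215 contacts). With 1 matrix a group, no spread between cultures can be set beside these values.

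**Figure D5:**
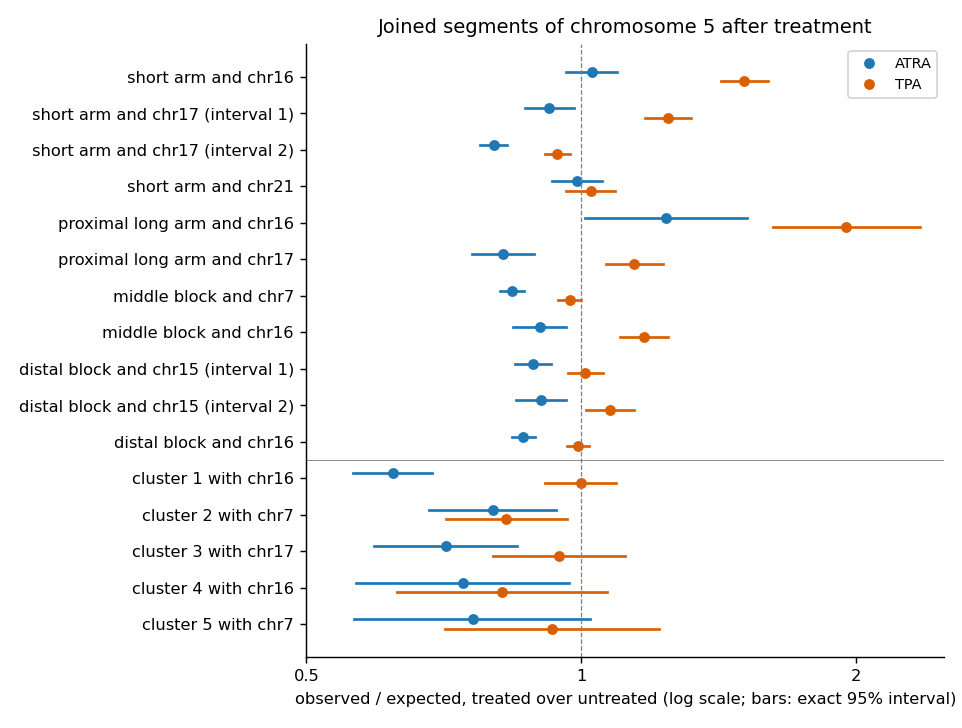
Ratio of observed over expected contacts in ATRA (blue) or TPA (orange) to untreated cells, on a log scale with exact 95% intervals for counting error, for each block and partner interval (above the grey line) and each joined cluster of 5 or more bin pairs (below it, numbered by size). The ATRA values of all 5 clusters lie below 1, and the TPA value of the proximal long arm with chromosome 16 is highest at 1.95.

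At the level of whole chromosomes, the expectation was fitted iteratively to the coverage of each chromosome. Chromosome 5 exceeded it most with chromosome 16 (1.31, 1.27 and 1.39 times), chromosome 7 (1.20, 1.14 and 1.18) and chromosome 17 (1.19, 1.16 and 1.25). Its level with chromosome 19 was 0.886, 0.970 and 0.990, and with chromosome 22 it was 0.839, 0.892 and 0.907. The counting interval of the change lay above 0 for 6 partners and below 0 for 4 of 22 in ATRA, and above 0 for 7 and below 0 for 8 in TPA. Contact with chromosome 19 was higher by 0.13 on the log2 scale in ATRA and 0.16 in TPA; under an expectation from chromosome lengths the ATRA value was -0.07 and the TPA value 0.19, so its direction in ATRA depended on the expectation. With chromosome 16 the change was -0.04 in ATRA and 0.09 in TPA, and it kept both directions with joined clusters masked and under chromosome lengths.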

How the data were processed

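The deposited matrices hold raw contact counts between 500 kb bins of hg19, per the file headers and the values; Bowtie and HOMER 4.7 are named in the submitters' processing notes, and HiCUP filtering in the series' design text. The libraries of a group had been merged. The diagonal was halved, chromosomes Y and M (120 columns a matrix) were not used, and bins under 0.2 times the median autosomal contact count in any matrix were dropped. Coverage was partitioned with a penalty of 10 times the noise variance times the log of the number of bins and at least 5 bins a segment. Contacts were balanced over 60 iterations for compartments. A partner interval needs 1.5 times the expectation and 20 contacts over 3 or more bins. Exact binomial and Newcombe intervals were used, in Python with numpy and scipy. The steps were tested on simulated data. The segment limits, lists and rules were chosen with earlier results of these data known; all segments, clusters of 5 bin pairs and switching runs, and the 5 largest switches, are named.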

Additional observations from a re-analysis of the deposited data

How the results depend on the processing

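The median coverage kept its level from contacts between chromosomes only and with all bins. A penalty 0.5 times as large gave 12 coverage segments in place of 6. The 5 joined clusters became 3 at 20 times the expectation, 10 with a minimum of 10 contacts and 9 in the untreated matrix alone, and the long-range joins within the chromosome 1 in place of 0 at 3 times. The single switching bin in ATRA became 0 without balancing, 2 with each arm on its own, 2 from contacts between chromosomes without partner chromosomes (an alternative chosen after seeing the data), 9 with a limit of 0.25 SD and 0 with 1 SD. The 10 in TPA became 0 without balancing, 4 from contacts between chromosomes, 29 with 0.25 SD and 0 with 1 SD. Without contacts inside one bin, the share within the chromosome changed by -4.27 points in ATRA and -1.14 in TPA. From contacts between chromosomes the low stretch changed by 0.021 (log2) in TPA. As a share of all contacts the clusters stood at 0.760 times untreated in ATRA. With chromosome lengths as expectation, 19 partners in ATRA and 8 in TPA had an interval apart from 0, in place of 10 and 15. The cause was not tested in any of these. A correction for GC content and HindIII sites was not run, since no hg19 genome was used. No replicate could be left out. No paired analysis was possible because the libraries of a group were merged before deposit.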

Other observations

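Single bin pairs outside the described clusters also passed the thresholds. The bin at 156.5 Mb, whose highest partner lies on chromosome 16, held 40 contacts with the bin at 131 Mb of chromosome 7 in the 3 matrices summed, 25.0 times the expectation. The first bin of the short arm held 21 contacts with the bin at 73.5 Mb of chromosome 17 (12.1 times), and the bin at 53 Mb held 21 with the same bin (12.8 times).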
